A study of Mus musculus with 15 samples.

Results

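Dividing cells switch on a shared set of genes that carry them through G2 and mitosis, and 40 such genes were followed in fibroblasts sorted from mouse lungs during the growth of breast cancer metastases. They were listed by name for their roles in mitosis, with no threshold on their values, though earlier results of these data were known. Of the 40, 39 were measured, out of 18193 genes in all. Ccnb1 was not analysed here. Each gene was read from 1 probe set, the one with the highest mean log2 intensity among its probe sets with a single gene symbol, and 27 of the 39 genes had more than 1 to choose from.

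The study injected cells of the human breast cancer line MDA-MB-231-LM2 (MDA-LM2), a highly metastatic derivative of MDA-MB-231 (MDA), or of MDA itself, into the tail vein of immunodeficient female NSG mice aged 6 to 8 weeks. The groups were named for the size of the metastases: MDA-LM2 micro and MDA micro were taken at week 1, MDA-LM2 macro and MDA macro at week 3, and the fifth group came from healthy NSG mice. Each of the 5 groups had 3 biological replicates of 1 to 3 mice, 1 array each, 15 arrays in all. The gate kept PDGFRA- or PDGFRB-positive cells that lacked leukocyte, myeloid, endothelial and epithelial surface markers, from the whole lung, so it drew cells near and far from metastases alike. All mice, healthy ones included, lack lymphocytes, both cancer lines carried a reporter of viral thymidine kinase, GFP and luciferase, and each line is a single model. Stage and time after injection cannot be told apart. The study chose mice with similar bioluminescence of their lungs for each stage, so the lines were compared at a like tumor burden.

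Entry into mitosis is driven by CDK1 bound to A- and B-type cyclins. The kinetochore then ties chromosomes to the spindle, the spindle checkpoint holds the cell until all are attached, and the anaphase-promoting complex (APC/C), a ubiquitin ligase, ends mitosis by marking cyclins and other proteins for destruction. Resting fibroblasts of the adult lung divide rarely, and mRNAs of this program are therefore used as a gauge of how many cells in a sample are cycling. In sorted bulk RNA, more cells in cycle and more of these mRNAs in each cell cannot be told apart.

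Many genes of the program share promoter letters: the cell cycle genes homology region (CHR, searched as TTTGAA or TTCGAA), to which the DREAM and MYB-MuvB complexes bind, and a CCAAT box, to which the factor NF-Y binds. The letters were searched on both strands of RefSeq windows (build GRCm38.p6) that reach from 250 bases before to 50 bases after each start site, and overlapping matches were each counted. Windows were found for 33 of the 39 genes. The CHR letters stood in the windows of 27 of 33 genes (81.8%), against 21.7% of 27025 genes with a window, and CCAAT in 26 of 33 (78.8%), against 41.1%. Both occurred together in 24 of 33 (72.7%), against 8.61% of all genes. Within 50 bases of the start site, the CHR letters occurred in 25 of 33 genes (75.8%), against 6.12%. E2F letters (TTTCGCGC or TTTGGCGC), by contrast, stood in 1 of 33 (3.03%), that of Cdk1, against 0.929% of all genes, whereas 12 of 42 DNA replication genes (28.6%) held them and 8 of those 42 (19%) held the CHR letters. A match is a description of the letters and not a proven site. Foxm1, Tpx2, Kif20a, Ccna2, Aurkb and Cdc25c had no entry.

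Below are the 250 bases before the start site of 5 genes that rose at week 3 and of Bub3, which did not, 5′ to 3′, with CCAAT and CHR letters (or their reverse complements ATTGG and TTCAAA) in capitals. They were chosen to show the shared layout beside a gene that did not rise, and do not stand for all the genes. Birc5, Melk, Nuf2 and Nusap1 rose at week 3 with neither CHR nor CCAAT letters in their windows. Kif4, not called over both lines, held both.
Top2a: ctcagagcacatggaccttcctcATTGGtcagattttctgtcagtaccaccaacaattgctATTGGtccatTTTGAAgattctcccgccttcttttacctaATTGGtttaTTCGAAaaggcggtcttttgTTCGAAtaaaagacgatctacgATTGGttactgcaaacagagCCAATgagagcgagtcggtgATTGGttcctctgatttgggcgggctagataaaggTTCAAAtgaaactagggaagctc
Mki67: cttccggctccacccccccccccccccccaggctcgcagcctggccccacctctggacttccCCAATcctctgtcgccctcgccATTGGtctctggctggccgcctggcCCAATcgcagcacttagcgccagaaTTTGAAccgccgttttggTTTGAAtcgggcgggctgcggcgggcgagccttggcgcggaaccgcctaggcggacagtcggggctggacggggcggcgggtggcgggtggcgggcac
Cdk1: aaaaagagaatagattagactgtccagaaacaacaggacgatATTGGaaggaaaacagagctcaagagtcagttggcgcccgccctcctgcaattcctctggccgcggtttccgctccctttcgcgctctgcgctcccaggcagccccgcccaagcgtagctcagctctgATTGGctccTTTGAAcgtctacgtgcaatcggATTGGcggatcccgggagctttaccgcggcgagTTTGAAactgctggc
Ube2c: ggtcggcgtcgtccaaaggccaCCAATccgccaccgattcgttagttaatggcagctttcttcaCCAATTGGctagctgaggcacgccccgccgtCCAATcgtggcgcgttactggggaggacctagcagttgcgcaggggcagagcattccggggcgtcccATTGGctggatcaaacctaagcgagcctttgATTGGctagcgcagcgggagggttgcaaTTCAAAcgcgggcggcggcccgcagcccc
Cdc20: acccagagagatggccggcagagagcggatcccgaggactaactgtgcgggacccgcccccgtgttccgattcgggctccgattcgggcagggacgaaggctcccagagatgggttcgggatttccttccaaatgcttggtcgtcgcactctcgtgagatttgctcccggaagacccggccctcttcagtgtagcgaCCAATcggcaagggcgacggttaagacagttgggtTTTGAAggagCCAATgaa
Bub3: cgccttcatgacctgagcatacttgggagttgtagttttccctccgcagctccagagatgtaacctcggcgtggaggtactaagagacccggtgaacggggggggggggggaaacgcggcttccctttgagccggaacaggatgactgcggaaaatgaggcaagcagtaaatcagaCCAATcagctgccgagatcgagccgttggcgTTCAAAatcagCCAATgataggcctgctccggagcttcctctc
The stretches lie at chr11:99024190-99024439 on the minus strand (Top2a), chr7:135716380-135716629 on the minus strand (Mki67), chr10:69352913-69353162 on the minus strand (Cdk1), chr2:164769679-164769928 on the plus strand (Ube2c), chr4:118437344-118437593 on the minus strand (Cdc20) and chr7:131560120-131560369 on the plus strand (Bub3), all in GRCm38.p6. Top2a held 4 CHR and 6 CCAAT matches, the CHR nearest to the start at −23. Mki67 held 2 CHR matches at −116 and −98, Cdk1 had 2 at −71 and −15, Ube2c had 1 at −29 and Cdc20 had 1 at −18. Bub3 held 1 at −43 between CCAAT matches at −74 and −32, so its letters resembled those of the genes that rose.

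Fibroblast genes were among the highest on every array. Summed intensities of 10 fibroblast markers were 85348 to 91846 on macro arrays and 101945 to 102197 on healthy arrays, and the mean level of Pdgfra stood at the 97.3 percentile of all genes, against 16.1, 20.4 and 38.8 for Ptprc, Epcam and Pecam1, which encode surface proteins gated out. Other markers of the same lists were not all low. Of 8 endothelial markers, 2 were called higher and 1 lower at week 3 over both lines. Kdr had a mean of 10.98 in MDA-LM2 macro and 9.74 in MDA macro, against 6.65 in healthy lungs (log2). Tek was the one called lower, at 7.63 and 7.90, against 10.13. The list summed to 2936 to 3173 in MDA-LM2 macro, against 1354 to 2577 in the other groups. The median of the list against healthy lungs was −0.12 to −0.08 on MDA-LM2 macro arrays and −0.18 to 0.01 on MDA macro arrays. Of 8 epithelial markers, 2 were called higher and 2 lower, with Krt8 at 10.24 and 8.91 and Krt18 at 11.04 and 9.72 in MDA-LM2 macro and MDA macro, against 6.71 and 6.34 in healthy lungs. Some markers of other cells moved with stage. The 10 macrophage and monocyte markers summed to 3175 to 4646 on macro arrays, against 1170 to 1943 on micro and healthy arrays. At week 3 over both lines, 6 of these 10 were called higher. Of 5 pan-leukocyte markers, Laptm5 was called higher (1.13), while Ptprc (0.08), Itgam (−0.12), Cd52 (−0.16) and Coro1a (0.11) were not called. Of 7 neutrophil markers, Mpo (0.84) and Camp (0.49) were called higher, Prtn3 lower (−0.41) and the rest not called. The 5 mesothelial markers summed to 3303 to 3981 in MDA-LM2 macro and 1315 to 2329 in MDA macro, against 488.6 to 784.5 on micro and healthy arrays. The 2 erythroid markers measured summed to 858.8 to 1401 in MDA-LM2 macro and 354.1 to 541.1 in MDA macro, against 149.7 to 243.4 elsewhere. Alas2 stood at 9.94 and 8.46 in these macro groups, against 7.19 in healthy lungs (log2). The globin gene Hba-a1 stayed low, at 6.66 and 6.59, against 6.16. At week 1, the 7 pericyte and smooth muscle markers summed to 37709 to 38675 in MDA-LM2 micro. They summed to 16585 to 19620 in MDA micro and 14990 to 21118 in healthy lungs. In MDA-LM2 micro against healthy lungs, Acta2, Myh11, Cnn1 and Actg2 were called higher, while Rgs5 (1.11), Cspg4 (0.74) and Kcnj8 (−0.07) were not called. The study uses αSMA, which Acta2 encodes, as a marker of contractile fibroblasts. The part of these markers and cell types in the results below was not tested. The Gapdh probe sets at the 3′ and 5′ ends, a gauge of RNA integrity, differed by 1.16 to 1.70 on healthy arrays, 1.18 to 1.24 in MDA-LM2 micro, 1.37 to 1.44 in MDA micro, 1.01 to 1.05 in MDA-LM2 macro and 1.03 to 1.43 in MDA macro (log2), so the lines did not overlap at week 1. For Actb the same difference was −0.09 to −0.04 in MDA-LM2 micro and −0.12 to −0.06 in MDA micro, which overlapped. It lay between −0.21 and −0.02 on all arrays. Array medians lay between 8.06 and 8.18 (log2), and replicate arrays of a group correlated at r = 0.973 to 0.984 across genes.

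At week 3 nearly the whole program was higher than at week 1. In a fit of both lines that allowed each its own level (6 arrays against 6), 36 of 39 genes were higher in macro than in micro fibroblasts and 0 lower (limma, Benjamini-Hochberg adjusted p under 0.05 over all 18193 genes, as throughout), where 18.8% of all genes were called higher. The median log2 fold change of the 39 was 1.38, against 0.05 for all genes, and 30 of 39 were at least 2-fold higher. Every macro array stood above every micro array for 32 of the 39 genes, which 9% of all genes did. Probe sets were chosen by their mean over all arrays, macro ones included, so the choice could favor sets that were high at week 3. With the mean of all probe sets of a gene, the median over both lines was 1.12. Of 25 genes that rose over both lines and had other probe sets, 7 had no other set called higher. The line-by-line comparisons gave 36 of 39 called higher in MDA macro against MDA micro (median 1.56, with 10.4% of all genes called higher) and 31 of 39 in MDA-LM2 macro against MDA-LM2 micro (median 1.18, with 9.25%). Set against healthy lungs, 36 of 39 were called higher in MDA-LM2 macro (median 1.59, with 13.6% of all genes) and 36 of 39 in MDA macro (median 1.58, with 8.43%). These comparisons share arrays and are not independent of each other. Leaving out any 1 array kept all 36 calls over both lines, 32 of 36 within MDA and 24 of 31 within MDA-LM2.

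**Figure D1:**
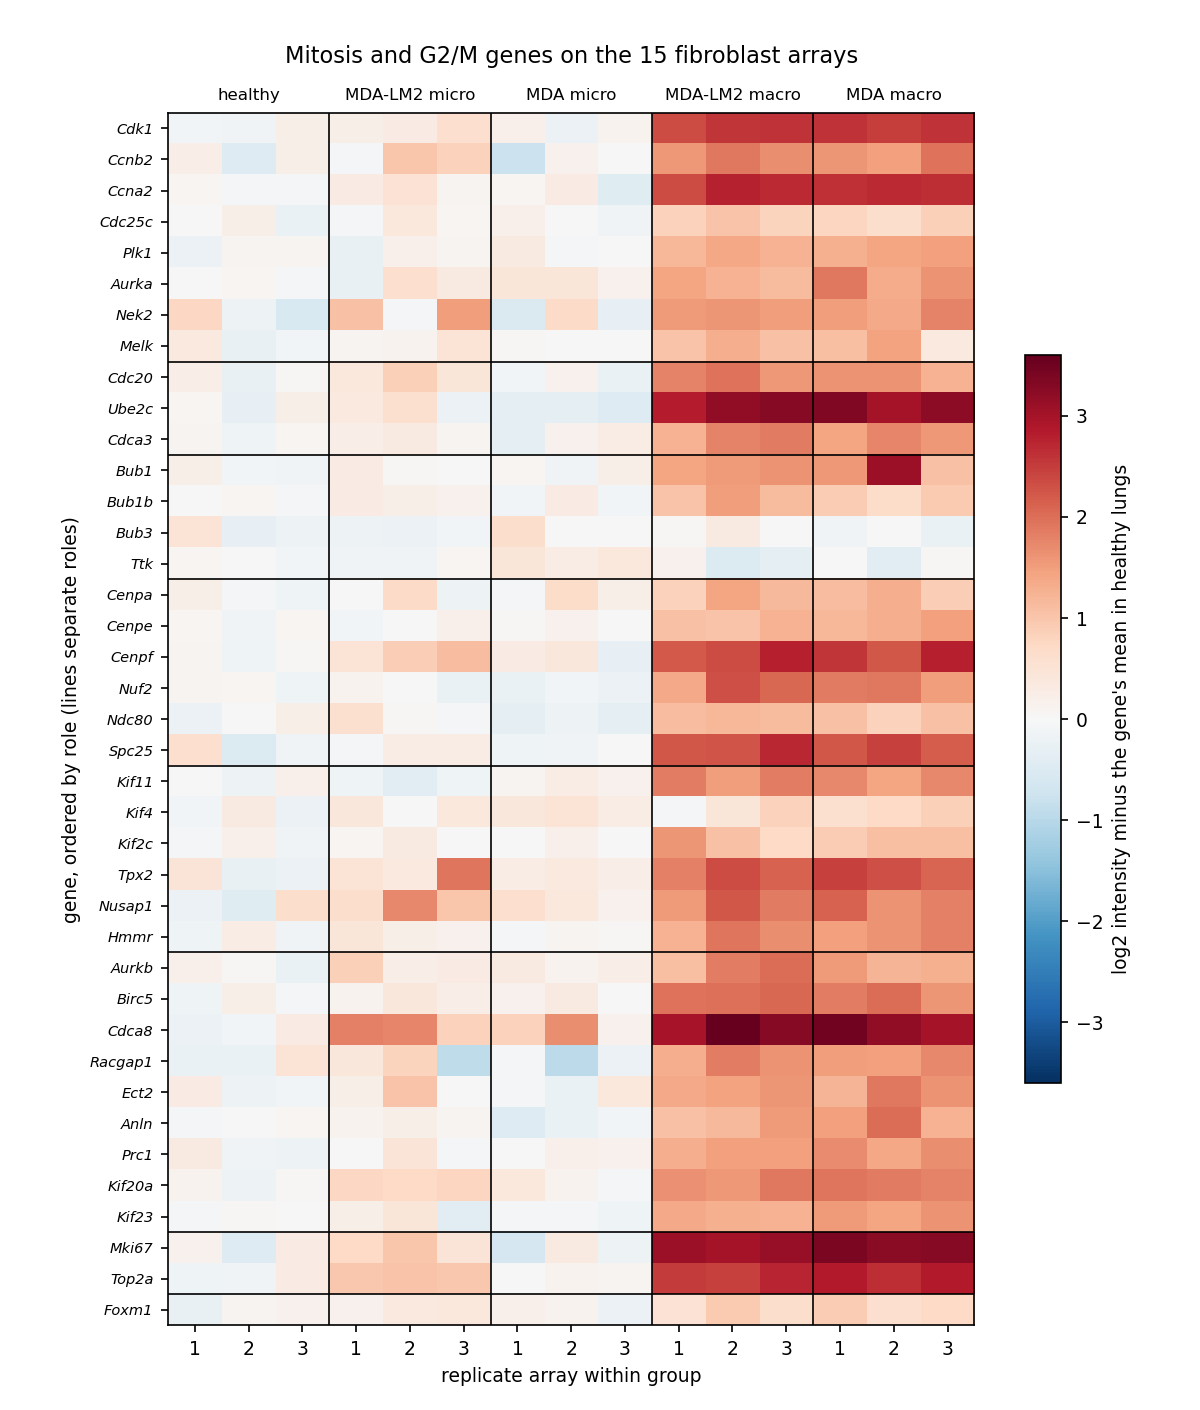
Heat map of the 39 measured mitosis and G2/M genes (rows, grouped by role) on the 15 arrays (columns, 3 per group), colored by log2 intensity minus the gene's mean in healthy lungs. Most rows turn red only in the macro groups, with a median over the genes of 1.37 to 1.60 in MDA-LM2 macro and 1.48 to 1.62 in MDA macro, and the rows of Bub3 and Ttk stay pale.

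Genes of mitotic entry came first by role. Cdk1, the kinase at the center of the program, read 7.06, 7.04 and 7.36 (log2 intensity) on the healthy arrays, 7.36, 7.44 and 7.76 in MDA-LM2 micro, 7.34, 6.95 and 7.27 in MDA micro, 9.50, 9.73 and 9.76 in MDA-LM2 macro and 9.76, 9.65 and 9.75 in MDA macro. All 6 macro arrays stood far above all the others, the nearest being 9.50 and 7.76. Cdk1 rose 5.05-fold in macro against micro (log2 fold change 2.34 ± 0.11, SE of the fit, adjusted p = 4.03e-08). Ccna2, the cyclin of S phase and G2, read 7.65, 7.56 and 7.57 on healthy arrays, 7.89, 8.12 and 7.70 in MDA-LM2 micro, 7.65, 7.89 and 7.15 in MDA micro, 9.94, 10.36 and 10.27 in MDA-LM2 macro and 10.22, 10.28 and 10.25 in MDA macro. It rose 5.59-fold (2.48 ± 0.14, adjusted p = 1.43e-07), with the macro arrays far from all the rest.

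Ccnb2, a B-type cyclin, read 7.50, 6.79 and 7.48 in healthy lungs, 7.20, 8.24 and 8.09 in MDA-LM2 micro, 6.49, 7.41 and 7.25 in MDA micro, 8.82, 9.16 and 8.94 in MDA-LM2 macro and 8.85, 8.74 and 9.21 in MDA macro. Its micro arrays spread widely, but none reached the macro range, and the gene rose 2.84-fold (1.5 ± 0.22, adjusted p = 0.000285). Plk1, a kinase of mitotic entry and spindle assembly, read 6.97, 7.29 and 7.28 in healthy lungs, 6.91, 7.36 and 7.28 in MDA-LM2 micro, 7.49, 7.10 and 7.18 in MDA micro, 8.38, 8.58 and 8.44 in MDA-LM2 macro and 8.45, 8.61 and 8.64 in MDA macro. It showed the step at week 3 and little else, 2.46-fold (1.30 ± 0.10, adjusted p = 1.54e-06). Cdc25c, the phosphatase that activates CDK1, read 7.16, 7.33 and 6.89 in healthy lungs, 7.06, 7.51 and 7.19 in MDA-LM2 micro, 7.30, 7.14 and 6.99 in MDA micro, 7.96, 8.14 and 7.92 in MDA-LM2 macro and 7.89, 7.77 and 7.99 in MDA macro. The rise was smaller, 1.68-fold (0.75 ± 0.09, adjusted p = 8.57e-05), yet the groups did not overlap. The other kinases of this role, Aurka and Nek2 of the centrosome and Melk, also rose over both lines (log2 fold changes 1.16, 1.16 and 0.92). Nek2 varied among the week 1 arrays (5.87 to 7.90) and was not called within MDA-LM2 (0.72 ± 0.36, adjusted p = 0.237).

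Over both lines, the largest change from micro to macro among the 39 was that of Ube2c, in the degradation machinery. This ubiquitin-conjugating enzyme of the APC/C read 8.17, 7.80 and 8.31 in healthy lungs, 8.45, 8.68 and 7.89 in MDA-LM2 micro, 7.75, 7.78 and 7.63 in MDA micro, 10.93, 11.30 and 11.37 in MDA-LM2 macro and 11.43, 11.09 and 11.32 in MDA macro. The lowest macro array stood at 10.93 and the highest other array at 8.68, and the gene rose 9.26-fold (3.21 ± 0.165, adjusted p = 7.01e-08). Cdc20, which activates the APC/C at anaphase, read 7.72, 7.20 and 7.51 in healthy lungs, 7.85, 8.34 and 7.92 in MDA-LM2 micro, 7.39, 7.62 and 7.22 in MDA micro, 9.27, 9.43 and 9.03 in MDA-LM2 macro and 9.08, 9.09 and 8.74 in MDA macro. It rose 2.6-fold (1.38 ± 0.13, adjusted p = 6.69e-06), and its MDA-LM2 micro arrays stood above all MDA micro and healthy arrays. Cdca3, known as a trigger of mitotic entry, rose by 1.48 on the log2 scale.

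The spindle checkpoint was split. Bub1b (BUBR1), a checkpoint protein that inhibits CDC20, read 6.83, 6.90 and 6.79 in healthy lungs, 7.14, 7.04 and 7.01 in MDA-LM2 micro, 6.75, 7.13 and 6.75 in MDA micro, 7.87, 8.35 and 7.97 in MDA-LM2 macro and 7.76, 7.51 and 7.79 in MDA macro. It rose 1.87-fold (0.90 ± 0.11, adjusted p = 5.45e-05), and Bub1, the kinase that recruits checkpoint proteins to kinetochores, rose by 1.63 on the log2 scale, with 1 MDA macro array at 8.84 and the other macro arrays at 6.81 to 7.38. Bub3, the partner that BUB1 and BUBR1 share, read 10.91, 10.12 and 10.26 in healthy lungs, 10.25, 10.21 and 10.33 in MDA-LM2 micro, 11.06, 10.43 and 10.42 in MDA micro, 10.48, 10.77 and 10.43 in MDA-LM2 macro and 10.29, 10.42 and 10.18 in MDA macro. The macro arrays lay among the micro and healthy ones, and the difference between stages was −0.02 ± 0.15 (adjusted p = 0.927, 95% interval −0.34 to 0.30). None of the 5 probe sets of Bub3 was higher at week 3.

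Ttk (MPS1), the kinase that starts checkpoint signaling, depended on the probe set read. On the brighter set it read 7.19, 7.16 and 7.04 in healthy lungs, 7.0, 7.01 and 7.19 in MDA-LM2 micro, 7.56, 7.39 and 7.50 in MDA micro, 7.30, 6.64 and 6.78 in MDA-LM2 macro and 7.11, 6.73 and 7.16 in MDA macro, so the macro arrays overlapped with the rest (−0.32 ± 0.13, adjusted p = 0.0718). On its other set, examined after the values were seen, Ttk read 6.28, 6.43 and 6.15 in healthy lungs, 6.04, 6.31 and 6.33 in MDA-LM2 micro, 6.20, 6.54 and 6.11 in MDA micro, 7.52, 7.69 and 7.61 in MDA-LM2 macro and 7.63, 7.97 and 8.00 in MDA macro. There it behaved like the rest of the program, 1.48 ± 0.11 higher in macro (adjusted p = 1.17e-06 in a fit of all 34944 probe sets). Which of the sets follows the Ttk mRNA was not tested.

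**Figure D2:**
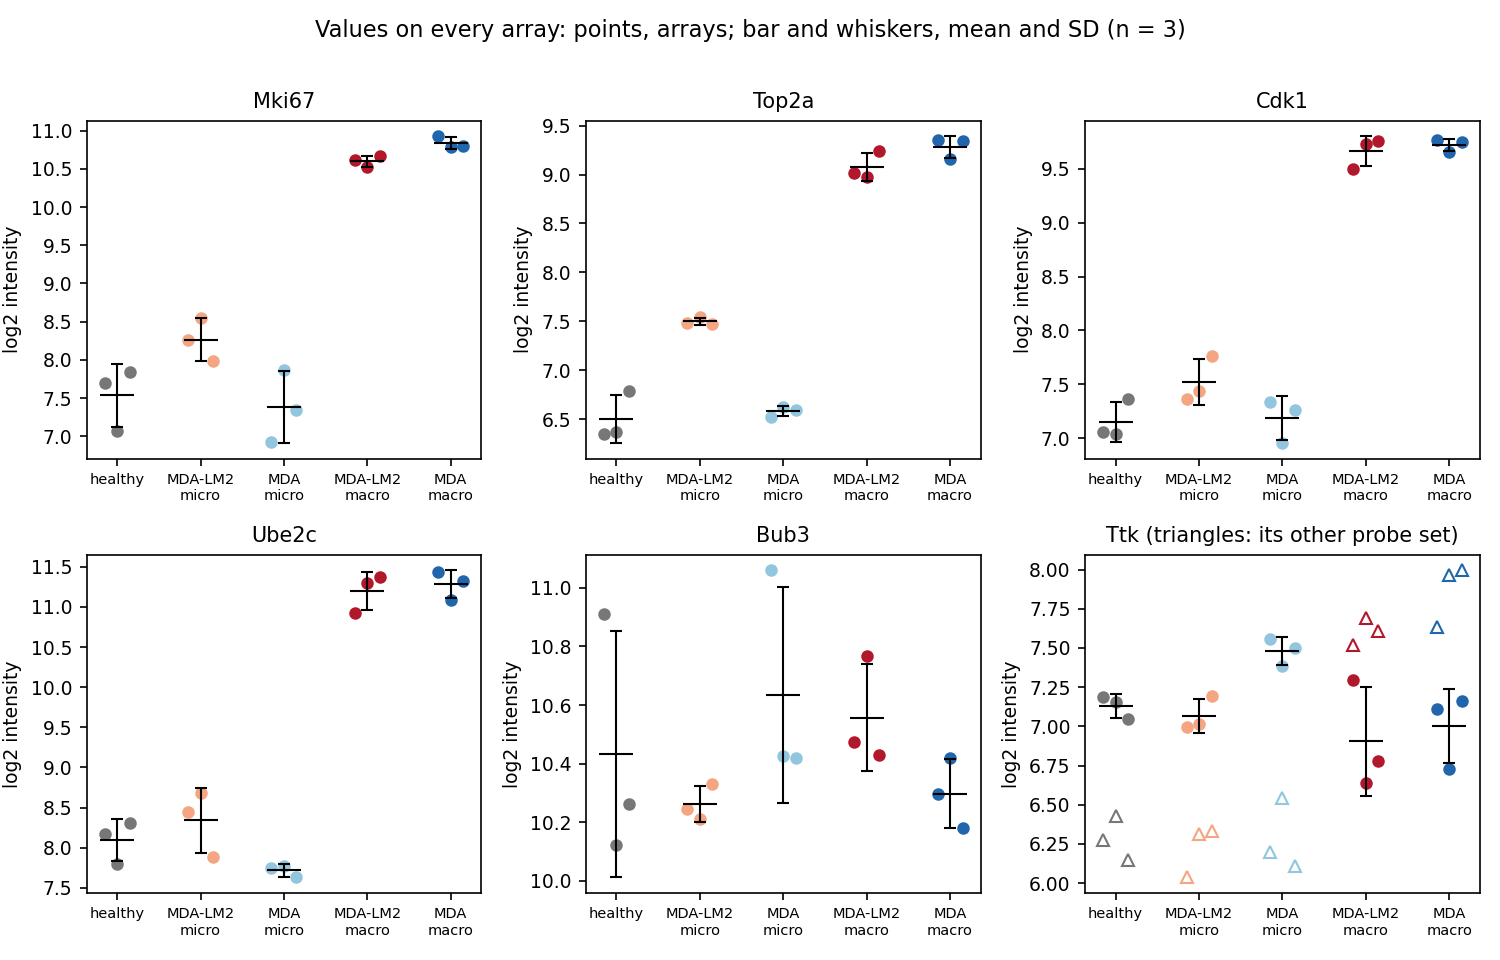
Log2 intensity on every array (points) of 6 genes in the 5 groups, with the group mean and SD (n = 3 arrays); for Ttk, filled points are the probe set used and triangles its other set, whose levels are not to be set against each other. Mki67, Top2a, Cdk1 and Ube2c step up in both macro groups, the MDA-LM2 micro points of Top2a and Mki67 lie above those of MDA micro and healthy lungs, Bub3 shows no step, and Ttk shows it only on the second set.

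All 6 kinetochore and centromere genes, on the probe sets used, rose at week 3 in each line. The Ndc80 complex, which holds microtubule ends, was represented by Ndc80, Nuf2 and Spc25 (log2 fold changes 1.12, 1.94 and 2.32 over both lines). Cenpa, the histone that marks centromeres, rose by 0.89, Cenpe, a kinetochore motor, by 1.18 and Cenpf by 2.01. The other probe sets of Spc25 (−0.01) and Cenpa (−0.49 and −0.01) were not called over both lines, nor was that of the spindle protein Nusap1 (−0.12). Among 6 spindle motors and microtubule binders, 5 rose: Kif11, the motor that separates spindle poles (1.71), Kif2c, a microtubule depolymerase (0.97), and the spindle proteins Tpx2 (1.59), Nusap1 (1.12) and Hmmr (1.47). Tpx2 and Nusap1 were not called within MDA-LM2 (adjusted p = 0.0997 and 0.146), where 1 of the week 1 arrays was high for each (8.61 for Tpx2 and 8.57 for Nusap1).

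Kif4, a chromokinesin, was the exception in that group. It read 6.59, 7.01 and 6.48 in healthy lungs, 7.11, 6.70 and 7.07 in MDA-LM2 micro, 7.09, 7.18 and 6.97 in MDA micro, 6.64, 7.13 and 7.54 in MDA-LM2 macro and 7.27, 7.40 and 7.54 in MDA macro. The MDA-LM2 macro arrays spanned nearly the whole range of the other groups, and macro against micro missed the threshold (0.24 ± 0.14, adjusted p = 0.224). Against healthy lungs, Kif4 was called in MDA macro (0.71 ± 0.17, adjusted p = 0.0311) and not in MDA-LM2 macro (0.41 ± 0.25, adjusted p = 0.279). Kif4 had 1 probe set.

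The genes that complete division rose without exception, all 9 of 9 over both lines. Birc5 (survivin) and Aurkb belong to the chromosomal passenger complex, which corrects faulty attachments and later guides the cleavage furrow. Birc5 read 6.70, 7.06 and 6.78 in healthy lungs, 6.96, 7.26 and 7.07 in MDA-LM2 micro, 7.01, 7.16 and 6.83 in MDA micro, 8.81, 8.82 and 8.90 in MDA-LM2 macro and 8.69, 8.87 and 8.44 in MDA macro. It changed at week 3 by nearly the same amount in both lines, 3.26-fold over both (1.71 ± 0.09, adjusted p = 1.19e-07). Aurkb, the kinase of the complex, read 6.70, 6.57 and 6.27 in healthy lungs, 7.38, 6.74 and 6.81 in MDA-LM2 micro, 6.83, 6.63 and 6.76 in MDA micro, 7.59, 8.35 and 8.52 in MDA-LM2 macro and 8.04, 7.73 and 7.80 in MDA macro. The lowest macro array, at 7.59, stood close to the highest micro array, at 7.38, and the rise was 2.21-fold (1.15 ± 0.16, adjusted p = 0.000178). Cdca8 (borealin), a further subunit, rose by 2.15.

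Racgap1, a subunit of the centralspindlin complex of the midzone, read 6.57, 6.55 and 7.28 in healthy lungs, 7.20, 7.61 and 5.89 in MDA-LM2 micro, 6.75, 5.86 and 6.59 in MDA micro, 8.11, 8.66 and 8.41 in MDA-LM2 macro and 8.31, 8.28 and 8.54 in MDA macro. It rose 3.32-fold over both lines (1.73 ± 0.26, adjusted p = 0.000327). The MDA-LM2 micro arrays spread between 5.89 and 7.61, and within that line the call was missed (1.49 ± 0.41, adjusted p = 0.0527). Its partner Kif23 rose by 1.41, Ect2, the exchange factor that it recruits, by 1.30, Prc1, which bundles midzone microtubules, by 1.37, Kif20a, a midzone motor, by 1.33 and Anln, the scaffold of the contractile ring, by 1.47.

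Mki67 (Ki-67), the standard marker of cycling cells, read 7.70, 7.06 and 7.84 in healthy lungs, 8.26, 8.55 and 7.99 in MDA-LM2 micro, 6.93, 7.87 and 7.34 in MDA micro, 10.61, 10.52 and 10.66 in MDA-LM2 macro and 10.93, 10.78 and 10.80 in MDA macro. It rose 7.46-fold (2.90 ± 0.21, adjusted p = 1.14e-06), and every MDA-LM2 micro array stood above every MDA micro and healthy array. Top2a, the topoisomerase that untangles sister chromatids, read 6.34, 6.37 and 6.79 in healthy lungs, 7.48, 7.54 and 7.47 in MDA-LM2 micro, 6.52, 6.62 and 6.59 in MDA micro, 9.02, 8.97 and 9.24 in MDA-LM2 macro and 9.35, 9.16 and 9.34 in MDA macro. The Top2a arrays formed 3 levels, with MDA-LM2 micro between the low and the high ones, and macro exceeded micro 4.41-fold (2.14 ± 0.18, adjusted p = 2.63e-06). Foxm1, a transcription factor that activates late cell cycle genes, read 7.60, 7.96 and 8.00 in healthy lungs, 8.01, 8.19 and 8.22 in MDA-LM2 micro, 8.04, 7.98 and 7.64 in MDA micro, 8.37, 8.78 and 8.50 in MDA-LM2 macro and 8.78, 8.46 and 8.56 in MDA macro. On this probe set, Foxm1 changed less than nearly all the genes above, 1.47-fold (0.56 ± 0.11, adjusted p = 0.00218). It was not called there within MDA-LM2 (0.41 ± 0.14, adjusted p = 0.103). The other sets of Foxm1 changed by 0.56, 1.29 and 0.13 over both lines. On the set with 1.29, MDA-LM2 micro and macro lay 0.22 and 1.74 above healthy lungs.

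Week 1 fibroblasts were closer to those of healthy lungs. In MDA micro against healthy lungs, 0 of 39 genes were called by limma (0% of all genes called higher), 4 of 39 had an unadjusted p under 0.05, against 8.48% of all genes, and the median log2 fold change was 0.04. Every MDA micro array stood above every healthy array for 2 of 39 genes, against 7.55% of all genes. In MDA-LM2 micro against healthy lungs, 35 of 39 log2 fold changes were positive with a median of 0.24, against 0.01 for all genes, and 13 of 39 genes had every MDA-LM2 micro array above every healthy array, against 10.1% of all genes. Only Top2a passed the test (1.00 ± 0.15, adjusted p = 0.0488), with 0.467% of all genes called higher, and 7 of 39 had an unadjusted p under 0.05, against 12% of all genes. That call held without healthy replicate 3 (adjusted p = 0.0452) and was lost without any other of the 6 arrays (adjusted p = 0.149 to 0.165). Kif20a came next (0.74 ± 0.12, adjusted p = 0.0686). Cdca8 (1.47 ± 0.29, adjusted p = 0.104), Nusap1 (1.13 ± 0.36, adjusted p = 0.294) and Cenpf (0.82 ± 0.18, adjusted p = 0.146) were among the 13 without passing. On their other probe sets the differences were 1.26 and 0.05 (Cdca8), −0.55 (Nusap1), and 0.05 and 0.18 (Cenpf). In MDA micro, Cdca8 also lay 0.89 above healthy lungs on the set used.

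The direct comparison of the lines at week 1 shares the MDA-LM2 micro arrays with the one before it. In MDA-LM2 micro against MDA micro, 31 of 39 log2 fold changes were positive (median 0.24, against 0.01 for all genes), and 13 of 39 genes had every MDA-LM2 array above every MDA array, against 9.71% of all genes. Bub3, Ttk and Kif11 had them all below, for which no share of all genes is given, so no result is read from it. On another probe set of each, Bub3 and Kif11 were higher in MDA-LM2 micro (0.23 and 0.78 above healthy lungs) than in MDA micro (0.06 and 0.10). Their probe sets thus differed in sign, and some others were lower in MDA-LM2 micro. Top2a was the only call (0.92 ± 0.10, adjusted p = 0.0274, with 0.341% of all genes called higher), and 11 of 39 had an unadjusted p under 0.05, against 11.7% of all genes. Mki67 differed by 0.88 ± 0.26 (adjusted p = 0.255), Kif20a by 0.59 ± 0.14 (adjusted p = 0.167), Cdc20 by 0.63 ± 0.18 (adjusted p = 0.244) and Ube2c by 0.62 ± 0.21 (adjusted p = 0.314). Top2a was called only on the probe set with its highest mean over all arrays. On MDA micro arrays, Top2a read lower on that set (6.52 to 6.62) than on the others (6.72 to 7.12 and 6.71 to 7.12). On its other sets, examined after the values were seen, MDA-LM2 micro and MDA micro did not differ beyond their spread (−0.09 ± 0.14, adjusted p = 0.852, and −0.21 ± 0.14, adjusted p = 0.642), and those sets did not separate the stages either (0.19 ± 0.12, adjusted p = 0.267, and 0.12 ± 0.12, adjusted p = 0.491). Without any 1 of the 6 arrays the call was lost (adjusted p = 0.0832 to 0.139), with a difference of 0.89 to 0.94. The same MDA-LM2 micro arrays had the higher pericyte and smooth muscle sums and the smaller Gapdh difference given above, while the Actb difference overlapped. The part of these in the difference between the lines was not tested.

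At week 3 none of these genes passed the test between the lines. In MDA-LM2 macro against MDA macro, 0 of 39 were called by limma (0% of all genes called higher), 18 log2 fold changes were positive and 21 negative, the median was −0.02, and the lowest adjusted p was 0.482. The 95% intervals of 38 of 39 genes lay within 1 log2 unit of 0, the exception being Bub1 (−0.37, interval −1.44 to 0.71). Only Bub1b, with a difference of 0.38 (interval 0.01 to 0.75), had an unadjusted p under 0.05, which 10.2% of all genes had. Every MDA-LM2 array stood above every MDA array for 3 of 39 genes, against 9.72% of all genes.

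**Figure D3:**
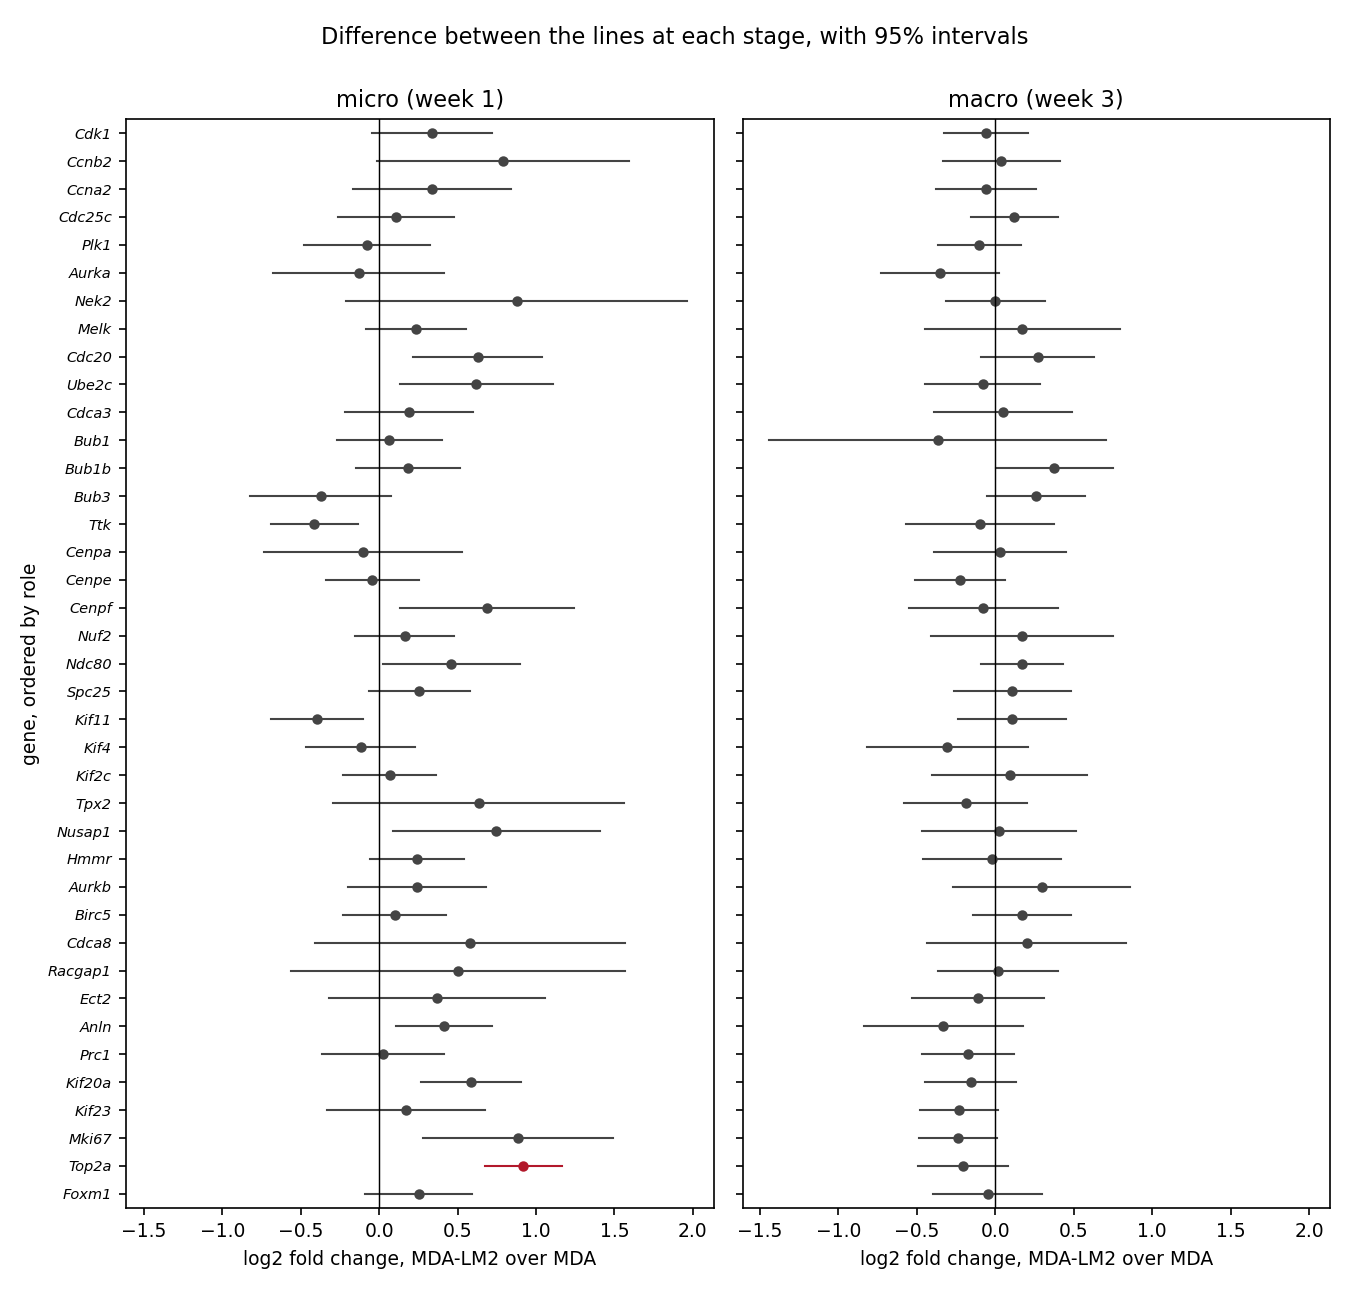
Log2 fold change of MDA-LM2 over MDA for each gene, at week 1 (left) and week 3 (right), with 95% intervals of the limma fit (3 arrays against 3); red marks a call. Most week 1 points lie right of 0 (31 of 39) with wide intervals and Top2a as the only call, and the week 3 points scatter around 0 (18 of 39 positive).

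**Figure D4:**
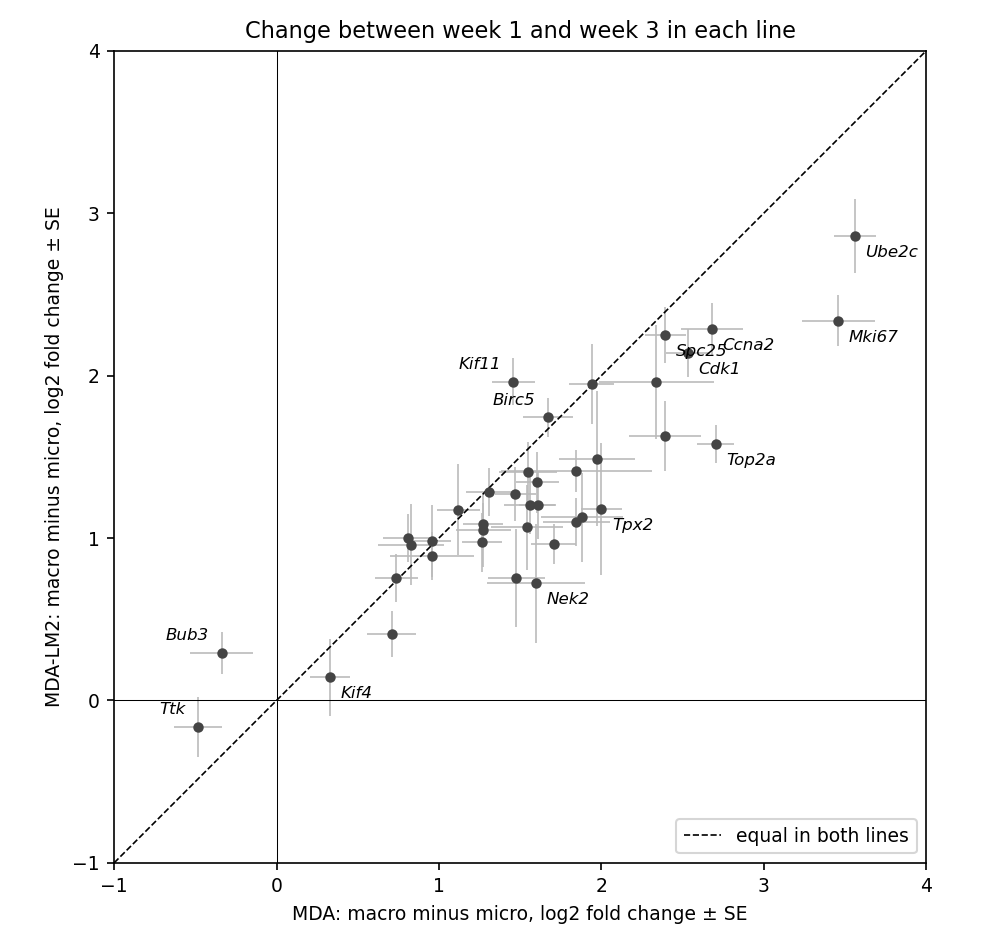
Log2 fold change of macro over micro in MDA-LM2 (vertical axis) against MDA (horizontal axis) for the 39 genes, with SE bars and a dashed line of equality. The genes keep much the same order in both lines (r = 0.885), 29 of 39 lie below the line, and Top2a and Mki67 lie farthest below it (−1.13 and −1.12).

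Whether the step from week 1 to week 3 differed between the lines was tested as an interaction over the 12 arrays of the metastasis groups. The step was smaller in MDA-LM2 than in MDA for 29 of 39 genes, with a median difference of −0.29, against 0.02 for all genes. Top2a alone passed the test (−1.13 ± 0.15, adjusted p = 0.00938), where 0.412% of all genes were called lower, and it passed without any 1 of the 12 arrays. On the other probe sets of Top2a the difference was 0.36 and 0.34 (adjusted p = 0.627 and 0.667). Mki67 had a difference of the same size with a larger error (−1.12 ± 0.29, adjusted p = 0.132), followed by Nek2 (−0.88 ± 0.52), Tpx2 (−0.82 ± 0.47) and Cenpf (−0.77 ± 0.33), none of them called. On the probe sets used, Bub3 (0.63 ± 0.24, adjusted p = 0.332) and Kif11 (0.50 ± 0.19, adjusted p = 0.336) were opposite in sign. Among the alternatives, Bub3 was as low as 0.04. On another set of Kif11, micro and macro lay 0.78 and 1.78 above healthy lungs in MDA-LM2, and 0.10 and 1.68 in MDA. On a further set, the differences from healthy lungs were −0.38 and 1.32 in MDA-LM2, and −0.35 and 1.66 in MDA. On both sets the step of Kif11 was smaller in MDA-LM2. Across the 39 genes, the steps of both lines, which share no array, correlated at r = 0.885 (Spearman's rho = 0.821), against r = 0.74 across all 18193 genes. Genes are not independent replicates, and the points share the probe sets.

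Across the 15 arrays, the genes followed the mean of the other members at r = 0.874 or more with 4 exceptions, led by Ccna2 (r = 0.993), Ube2c (0.987), Cdk1 (0.986) and Mki67 (0.985). The exceptions were Nek2 (0.787), Kif4 (0.543), Bub3 (−0.07) and Ttk on its brighter set (−0.60). The arrays fall into a high and a low cluster by stage, which these values largely reflect. Both macro means exceeded both micro means and the healthy mean for 37 of 39 genes, and the highest group mean was that of MDA-LM2 macro for 17 genes and of MDA macro for 20.

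Other cell cycle genes moved along in part. Of 74 further mitosis genes, 49 rose and 0 fell at week 3 over both lines (median 0.79), among them the chromokinesin Kif22 (2.40), the CDK-binding protein Cks2 (2.06), the kinesin Kif18b (1.93) and Aspm (1.93), a protein of the spindle poles. Of 52 DNA replication genes, 26 rose and 1 fell (median 0.37). They included Rrm2, a subunit of the enzyme that makes deoxynucleotides (2.49), Mcm5 (1.90) and Gins2 (1.56) of the replicative helicase, and Uhrf1 (1.74), which maintains DNA methylation. Of 22 E2F and DREAM factors, 7 rose and 1 fell (median 0.26), led by E2f7 (0.95) and E2f8 (0.70), which repress transcription, E2f2 (0.63) and E2f3 (0.61). The shares called higher were thus 49 of 74, 26 of 52 and 7 of 22, beside 18.8% of all genes.

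CDK inhibitors, which restrain the cycle, and D cyclins also moved. Of 16 CDK inhibitors and D cyclins, 9 rose and 3 fell (median 0.42), beside 18.8% of all genes called higher and 12.3% called lower. Cdkn2b (p15), an inhibitor of CDK4 and CDK6, rose by 3.21 ± 0.19 (adjusted p = 1.94e-07), and Cdkn1a (p21), an inhibitor of several CDKs, by 1.89 ± 0.15 (adjusted p = 2.26e-06). Cdkn1c (p57), an inhibitor kept high in many resting cells, fell by 1.53 on the log2 scale (SE 0.15, adjusted p = 8.23e-06), while the D cyclin Ccnd2 rose by 1.49 ± 0.12 (adjusted p = 1.71e-06). Of 15 APC/C subunits and regulators, 4 were called higher and 2 lower (median −0.09), shares near those of all genes, with Ube2s (0.80), Cdc27 (0.63) and Cdc26 (0.44) higher and Anapc13 lower (−0.39). At week 1, 0 genes of these 5 lists were called by limma in MDA-LM2 micro against healthy lungs or against MDA micro. An unadjusted p under 0.05 was found for 5 and 3 of the 74 further mitosis genes, fewer than the 12% and 11.7% of all genes.

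**Figure D5:**
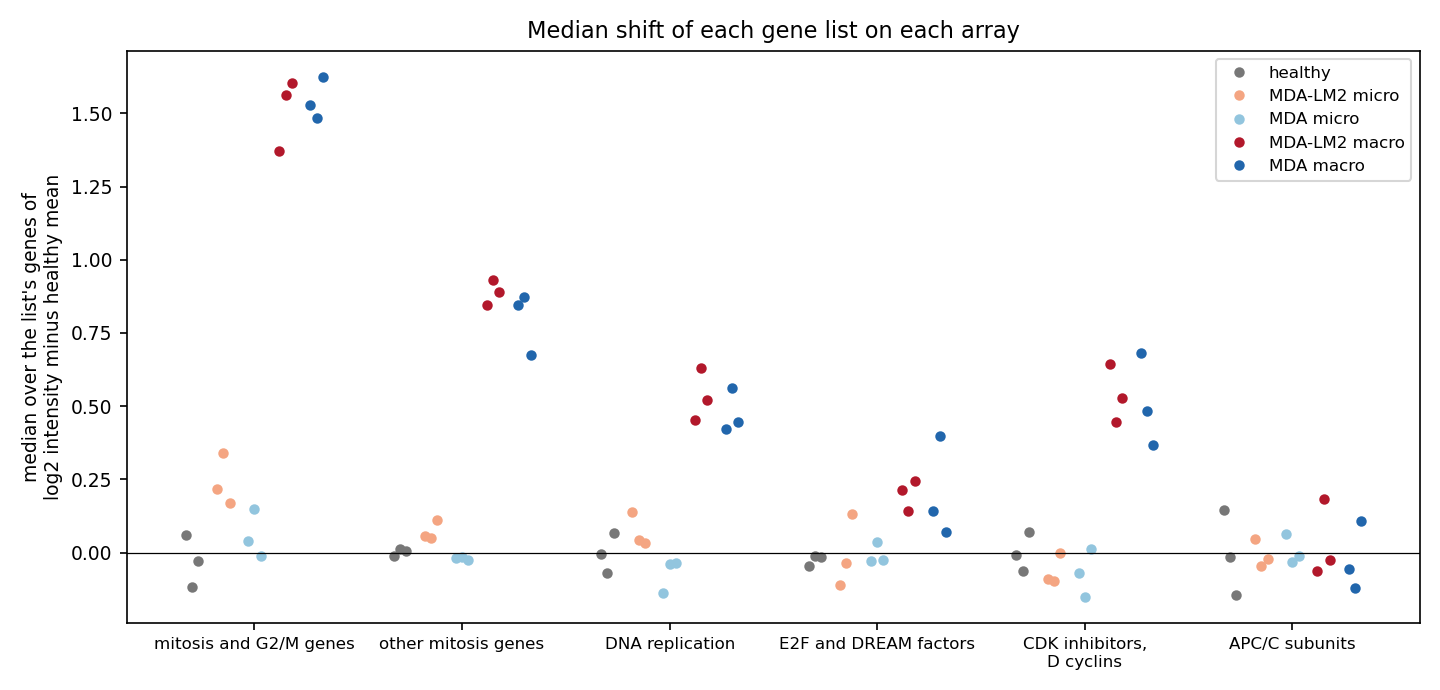
Median over the genes of each list of the log2 intensity minus the healthy mean, on each of the 15 arrays (points, colored by group). The mitosis and G2/M genes show the widest step, with MDA-LM2 micro arrays at 0.17 to 0.34, MDA micro arrays at −0.01 to 0.15 and macro arrays at 1.37 to 1.62, and the APC/C subunits show none.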

How the data were processed

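Fibroblast RNA (PicoPure, amplified with Ovation Pico WTA V2) was hybridised to 15 Affymetrix whole-genome mouse arrays, 3 for each of 5 groups. Values were deposited as intensities of probe sets, which the authors made by robust multi-array average in Chipster. They were taken as linear, since array minima were 31.0 to 35.2 and maxima 26890 to 27897, and were log2-transformed here. Of 45100 probe sets, 34944 had 1 gene symbol in the platform annotation, 932 had several, 9211 were not listed there, and 64 control probe sets were left out of the tests. For each of 18193 genes the probe set with the highest mean was used, with no filter on dim genes. Arrays have no sequencing depth, so precision depends on how many there are.

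Groups were compared with limma 3.58.1 in R 4.3.3 (two-sided, 6 arrays a fit, or 12 for both lines and for the interaction), with Benjamini-Hochberg adjustment over all genes at 0.05. The test was also run on simulated data. Errors in brackets are SE of the fit. The members and lists were chosen with earlier results of these data known. Values on every array are given for 15 measured genes central to the program, for genes called at week 1 or in the interaction, and for the 3 highest and 3 lowest over both lines. Arrays with the same replicate number did not deviate together (r = −0.07 to 0.07), so no pairing was used. Alternatives were 1 fit of all arrays, a replicate block, quantile or median scaling, the mean of all probe sets, leaving out dim genes and leaving out each array. Results from other probe sets were added after seeing the data.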

Additional observations from a re-analysis of the deposited data

Results flagged for a closer look

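The change in Top2a between the stages differed between the lines. Macro minus micro was 1.58 ± 0.12 in MDA-LM2 and 2.71 ± 0.11 in MDA (log2, SE of the fit), and the test of the difference gave −1.13 ± 0.15 (limma, interaction, adjusted p = 0.00938 over 18193 genes). It passed when any 1 of the 12 arrays was left out (−1.21 to −1.07) and with a replicate block (adjusted p = 0.0227). It is the difference of MDA-LM2 minus MDA at week 3 (−0.21) less that at week 1 (0.92). At week 1, MDA-LM2 arrays read 7.48, 7.54 and 7.47 and MDA arrays 6.52, 6.62 and 6.59. It was not seen on the other probe sets of Top2a (0.36 and 0.34), and with the mean of all its probe sets it was −0.14 (adjusted p = 0.786). The other probe sets did not separate the stages.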

How the results depend on the processing

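The median change at week 3 stayed positive in both lines under all alternatives run. Leaving out 1 array at a time gave 36 to 37 of 39 called higher over both lines, 32 to 36 within MDA, 24 to 32 within MDA-LM2, 31 to 34 in MDA macro and 35 to 36 in MDA-LM2 macro against healthy lungs. The medians were 1.34 to 1.47 over both lines, 1.13 to 1.33 within MDA-LM2 and 1.48 to 1.68 in MDA-LM2 macro against healthy lungs. Calls at week 1 came to 0 to 1 in MDA-LM2 micro against healthy lungs (median 0.17 to 0.28) and 0 against MDA micro (0.20 to 0.26), calls lower to 0 to 1 over both lines, and the interaction gave 1 to 2 (median −0.40 to −0.21). With all 15 arrays in 1 fit, 2 genes were called in MDA-LM2 micro against healthy lungs and 2 against MDA micro, and 1 was called lower both within MDA and over both lines, over both lines also with median-centred arrays. Same-numbered arrays share only a number. With a replicate block 0 genes were called in either week 1 comparison, and every other count of calls stayed within 1.5 times. With quantile scaling 0 were called in MDA-LM2 micro against healthy lungs. With the mean of all probe sets of a gene, the medians fell to 1.21 (MDA macro against healthy), 1.19 (MDA-LM2 macro against healthy), 1.23 (within MDA), 0.97 (within MDA-LM2), 1.12 (over both lines) and −0.19 (interaction), and no Top2a call was left in MDA-LM2 micro against MDA micro (0) or the interaction (0). Ttk then turned positive, at 0.73 and 0.55 in MDA and MDA-LM2 macro against healthy lungs, 0.55 and 0.61 within MDA and MDA-LM2, and 0.58 over both lines. On its second probe set Ttk read 1.58, 1.32, 1.58, 1.38 and 1.48 in the same order, and Top2a read −0.093 in MDA-LM2 micro against MDA micro and 0.36 in the interaction. Leaving out genes under a mean of 8.12 (log2, the median gene) over all arrays left 9 of the 39. Of these, 7 were under that level by their mean over healthy and micro arrays and passed through the macro arrays, so the counts and medians below lend no support. Of the 9, 8 were called in MDA macro (median 2.57) and 8 in MDA-LM2 macro (2.51) against healthy lungs, 8 within MDA (2.34), 7 within MDA-LM2 (1.96) and 8 over both lines (2.15). At week 1 it left 0 against healthy lungs (0.37) and 0 against MDA micro (0.58), and 0 in the interaction (−0.40), Top2a itself being left out. The cause of the other changes was not tested. Background was not measured here, so how small a change the dim genes could show is unknown.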

Other observations

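Counts over the probe sets not used in the report, taken after seeing the data, stand here. The 27 genes with several probe sets had 51 others, of which 29, from 19 genes, were higher in macro than in micro over both lines (limma, all 34944 probe sets in 1 fit) and 1, of Bub3, was lower (−0.49, adjusted p = 0.00261). Of 25 genes that rose over both lines and had other probe sets, 7 had no other set called higher, Anln, Aurka, Cdca3, Cenpa, Nusap1, Spc25 and Top2a. None of the 51 was called at week 1, between the lines at week 3 or in the interaction by limma. The share of all 34944 probe sets called is not given, so these counts describe the members only.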
